A study of Drosophila melanogaster with 48 samples.

Results

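The RNA of 3 stage 2 embryos of the Drosophila melanogaster line ZI160 was compared with that of 9 stage 2 embryos of the Zambia lines ZI050, ZI094 and ZI470, with 3 embryos per line. The members are the 3 columns of the count table that carry the name ZI160 at stage 2, of 48 columns in all. The study sequenced single whole embryos of 4 Zambia lines and of the 4 Raleigh lines RAL307, RAL357, RAL360 and RAL517 at stage 2, when the RNA is maternal, and at late stage 5. The Zambia lines were isofemale lines, each founded by a single wild female and then inbred, and no embryo was treated or carried an engineered allele. Mothers aged 3 to 10 days were kept at 25 °C on standard food, and the sex of the stage 2 embryos is unknown.

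The columns were taken as they are named, and 2 facts about them bear on every result. For Hsp23 and for swaPsi the study's text names another Zambia line as the high line than the table does, in such a way that the names ZI160 and ZI094 may be exchanged in either source, so ZI160 here means the embryos labelled ZI160 in the table. Within the table the names of both stages go together: across 7080 genes the deviation of the ZI160 mean from the mean of the 4 Zambia lines at stage 2 had a Pearson correlation of 0.38 with that of ZI160 at stage 5, against -0.14, -0.13 and -0.11 with those of ZI050, ZI094 and ZI470. The embryo ZI470 replicate 1 correlated least with its line. After each gene was centred its mean correlation with the other ZI470 embryos was -0.07, against 0.36 and 0.40 for those embryos and 0.70 to 0.76 for the ZI160 embryos, and results are therefore also given without it. Dixon's test of this measure over the 9 other embryos did not call it an outlier. The gap to the nearest embryo was 0.492 of the range, just under the critical value. That nearest embryo is of ZI470 too, and its mean includes its correlation with replicate 1. This narrows the gap, so the test cannot decide whether replicate 1 is an outlier.

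The total counts were 27869478, 27653201 and 25090803 in the ZI160 embryos, against 27630860 to 30329144 in the 9 others. Levels are given as CPM, the counts scaled to a common library size by TMM. A floor of 3 counts equalled 0.108 to 0.120 CPM without TMM scaling in ZI160 and 0.0989 to 0.109 CPM in the others, and floors and counting intervals cover counting error only. Among markers of stage and source, 8 maternal RNAs summed to between 6396 and 7008 CPM in ZI160 and between 6623 and 7188 CPM in the others, 17 eggshell and follicle cell genes to at most 0.311 and 0.677 CPM, and 14 sperm and testis genes to 0 and at most 0.0356 CPM. Of those 14 genes 12 were at 0 in all 12 embryos. The 17 early zygotic genes summed to 241 to 269 CPM in ZI160 and 207 to 244 CPM in the others. In edgeR 0 of the 10 that were tested were called, and 1 was at an unadjusted p under 0.05, against 2056 of all 7242 genes. DESeq2 called 1 of the 10, against 854 of all 7242 genes. Ribosomal RNA held 14467 to 21630 CPM in ZI160 and 8441 to 18463 CPM in the others, and its part in the results was not tested.

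An insect egg is loaded by the mother with the RNA for its first divisions, its axes and its germ line, since its own genome is silent at first. Most of this RNA is made in the nurse cells of the mother's ovary and is carried into the oocyte. Later the maternal RNA is degraded in steps while the zygotic genome takes over, so that at stage 5 both sources are present.

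Which genes set ZI160 apart from the other lines of its population? A gene was called differentially expressed (DE) when the quasi-likelihood test of edgeR, run on ZI160 against the mean of the 3 other line coefficients, gave it a Benjamini-Hochberg adjusted p under 0.01. Of 7242 genes tested 480 were DE (6.63%), of which 278 were higher in ZI160 (3.84%) and 202 lower (2.79%). A stricter criterion asked that a gene be DE against each of the 3 lines in the same direction, and 113 genes met it (1.56%), 57 higher (0.787%) and 56 lower (0.773%). The ZI160 embryos did not overlap with the 9 others in 613 genes (8.46%), above them in 310 (4.28%) and below them in 303 (4.18%). The differences of the higher genes were larger in median: the median size of the log2 fold change was 1.02 over the 278 higher genes and 0.51 over the 202 lower genes, against 0.11 over all genes tested. They were also less abundant, with a median of 20.6 CPM over the 12 embryos for higher genes, 44.4 CPM for lower genes and 60.6 CPM for all genes.

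**Figure D1:**
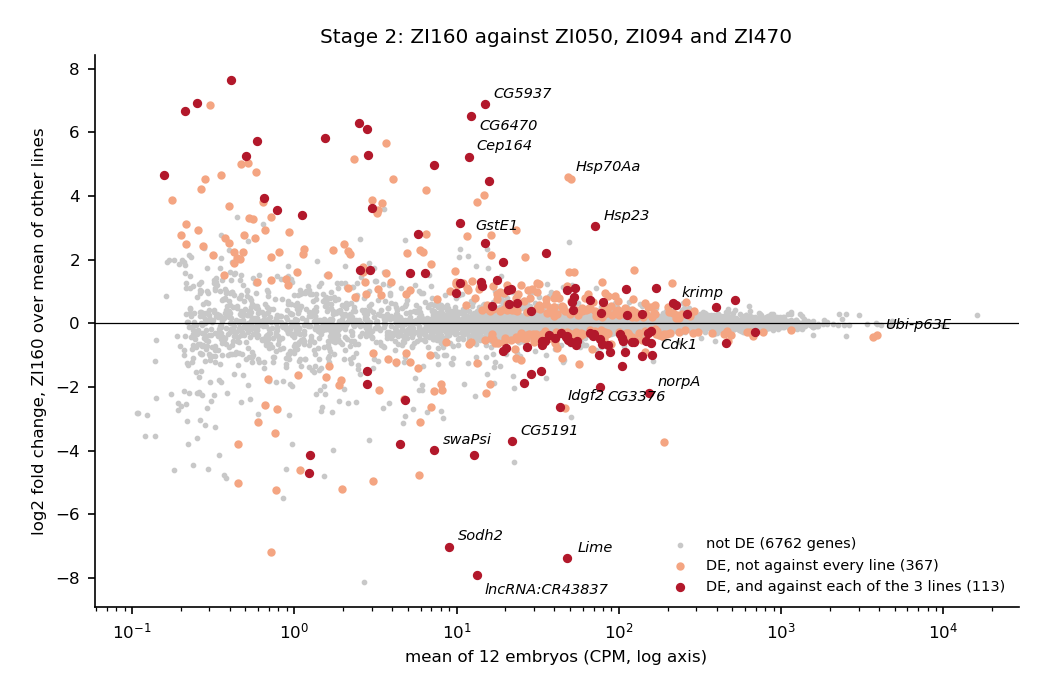
Log2 fold change of ZI160 over the mean of the other Zambia lines at stage 2 (y axis) by mean level of the 12 embryos in CPM (x axis, log scale), with 1 point per gene tested. Of 480 DE genes, the 113 that were DE against each line (dark red) and the 367 others (orange) lie on both sides of 0, and the 6762 genes that were not DE (grey) centre on it.

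The count depended on single embryos. Without ZI470 replicate 1 the count was 1049 DE genes of 7375 (14.2%), 577 higher and 472 lower, and 240 genes were DE against each line. Without ZI160 replicate 1, 2 or 3 it was 317, 248 or 249, and leaving out any single embryo other than ZI470 replicate 1 left 60 to 77 genes DE against each line. Since the replicates are embryos of the same line, the p-values measure the spread between embryos of a line. With the counts of each line summed, so that 1 line stands against 3, edgeR called 0 genes. In that fit 320 of 7242 genes were at an unadjusted p under 0.05, against 2056 in the main fit, and the lowest adjusted p was 0.13. A fit without line terms, with the embryos of the other lines pooled as replicates of 1 group, called 149 genes. Its replicates were embryos and not lines, so it was not a test between lines.

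The most separated genes were high in ZI160 and much lower in the other Zambia lines. CG6470, on the X chromosome (X:18512829-18514867 on BDGP6), had 46.0, 48.9 and 47.8 CPM in the ZI160 embryos, against 0.603 to 1.17 CPM in ZI050, 0.378 to 0.813 CPM in ZI094 and 0.214 to 0.315 CPM in ZI470. Its log2 fold change was 6.52 ± 0.18 (SE, adjusted p = 3.91e-09), and the 3 embryos of ZI160 lay close together and far above all others. CG5937 (X:6040005-6050381) had 24.3, 70.4 and 80.8 CPM in ZI160, against at most 2.74 CPM in any other embryo, with a log2 fold change of 6.88 ± 0.68 (adjusted p = 8.05e-05). Its level was much lower in ZI160 replicate 1 than in the other ZI160 embryos, unlike that of CG6470. Both genes were at or below 0.893 CPM in every embryo of the 4 Raleigh lines as well.

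Cep164, whose vertebrate counterpart is a component of the distal appendages of centrioles, had 42.7, 47.9 and 38.8 CPM in ZI160, against 0.424 to 3.51 CPM in the 9 other embryos (log2 fold change 5.24 ± 0.24, adjusted p = 2.1e-07). Other genes of the X in this group were CG11382, with 56.6, 58.2 and 53.2 CPM in ZI160 against 1.51 to 3.25 CPM in the others, CG2930, with 24, 31.2 and 23.5 CPM against 0.376 to 3.64 CPM, and CG9123, with 33.8, 28.8 and 28.0 CPM against 1.07 to 9.40 CPM. In each of these genes the lowest ZI160 embryo was above the highest embryo of the other Zambia lines. CG12708 and CG17167, also on the X, averaged 5.76 ± 2.49 and 10.5 ± 6.48 CPM in ZI160 (SD, n = 3) and 0.141 ± 0.12 and 0.297 ± 0.148 CPM in the other lines (SD of the 3 line means). CG17167 overlaps CG17163 and CG2930 overlaps yin in the annotation. CG12708, CG9123, Cep164 and CG2930 were not low in all other lines. Single Raleigh embryos ran from 1.84 to 107 CPM for CG12708 and from 15.7 to 28.8 CPM for CG9123. They ran from 1.18 to 21.7 CPM for Cep164 and from 0.502 to 17.7 CPM for CG2930. For CG17167 the Raleigh range was 0.921 to 6.34 CPM, and for CG11382 it was 1.02 to 4.20 CPM.

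Beyond the X, CG7720 on 3R had 11.2, 10.2 and 10.8 CPM in ZI160 and 0 to 0.585 CPM in the others, a log2 fold change of 6.11 ± 0.57 (adjusted p = 5.5e-05). Raleigh embryos had 2.31 to 8.18 CPM of CG7720. CG34355 on 3R had 5.01, 18.0 and 5.65 CPM in ZI160 and 0 to 0.420 CPM in the others, and its annotated span overlaps those of eIF4G2 and of other genes. Rpt3R, a paralogue of the proteasome ATPase Rpt3, had 15.9, 6.62 and 6.10 CPM in ZI160 and 0.376 to 1.55 CPM in the others. In CG34355 and in Rpt3R 1 ZI160 embryo stood well above the others, and both kept their calls without any single embryo. Cnx14D, a calnexin gene on the X named after its values were seen, was the only gene with at least 30 counts in each ZI160 embryo and at most 3 in each other embryo: it had 1.35, 1.68 and 1.80 CPM in ZI160, against 0.0713 CPM in ZI470 replicate 1 and 0 in the remaining 8.

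The most reduced genes were close to the floor in ZI160 and well above it in the other lines. Lime, a zinc finger gene linked to blood cells and metabolism (2R:9871470-9873646), had 0.519, 0.262 and 0.286 CPM in ZI160, against 54.1 to 87.5 CPM in ZI050, 26.7 to 49.1 CPM in ZI094 and 57.6 to 118 CPM in ZI470. From the 29 counts left in ZI160, its level was 177-fold higher in the other lines (95% counting interval 123 to 264). Sodh2, a sorbitol dehydrogenase gene (3R:10876384-10878257), had 0, 0.150 and 0 CPM in ZI160, which is 4 counts in all, against 25.5 to 30.9 CPM in ZI050, 1.34 to 2.47 CPM in ZI094 and 2.42 to 9.48 CPM in ZI470. ZI160 was lowest in both genes, but for Sodh2 the other lines themselves differed widely, and the fitted log2 fold change of -7.01 became -10.65 without ZI160 replicate 2, the embryo that holds the 4 counts.

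norpA encodes the phospholipase C of the fly's phototransduction and was reduced to an intermediate level (X:4322626-4365408). It had 46.3, 38.9 and 41.2 CPM in ZI160, against 190 to 195 CPM in ZI050, 198 to 207 CPM in ZI094 and 160 to 188 CPM in ZI470, a log2 fold change of -2.18 ± 0.07 (adjusted p = 8.2e-09). The embryos of the 3 other lines and of the 4 Raleigh lines, which had 154 to 226 CPM in the Raleigh lines, all lay well above ZI160. Idgf2, a chitinase-like growth factor of imaginal discs, had 5.57, 12.1 and 8.02 CPM in ZI160 and 29.2 to 73.9 CPM in the other embryos. Raleigh embryos reached from 0.323 to 43.5 CPM for Idgf2, so that ZI160 was not outside the range of all lines.

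CG3376 had 22.5, 20.5 and 27.1 CPM in ZI160, against 70.3 to 114 CPM in the others (log2 fold change -1.99 ± 0.11, adjusted p = 1.5e-06). CG5191 had 2.56, 1.61 and 1.72 CPM in ZI160, against 7.97 to 18.2 CPM in ZI050 and 21.5 to 51.5 CPM in ZI094 and ZI470. The remaining genes with the largest decreases were CG34347 and CG9503, at 1.09 ± 0.119 and 8.38 ± 1.04 CPM in ZI160 and 6.03 ± 1.66 and 32.0 ± 10.0 CPM in the other lines, Sclp, at 0.406 ± 0.256 and 5.83 ± 1.51 CPM, and the gene listed as FBgn0058178, at 0.917 ± 0.629 and 16.8 ± 5.16 CPM. All of these genes had ZI160 embryos below the lowest embryo of the other Zambia lines. CG9503 was not outside the range of all lines, since RAL357 and RAL360 averaged 6.10 and 5.89 CPM. For CG34347 the Raleigh embryos went down to 1.18 CPM. The span of CG9503 overlaps Flo2 and that of CG5191 overlaps CG10877.

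**Figure D2:**
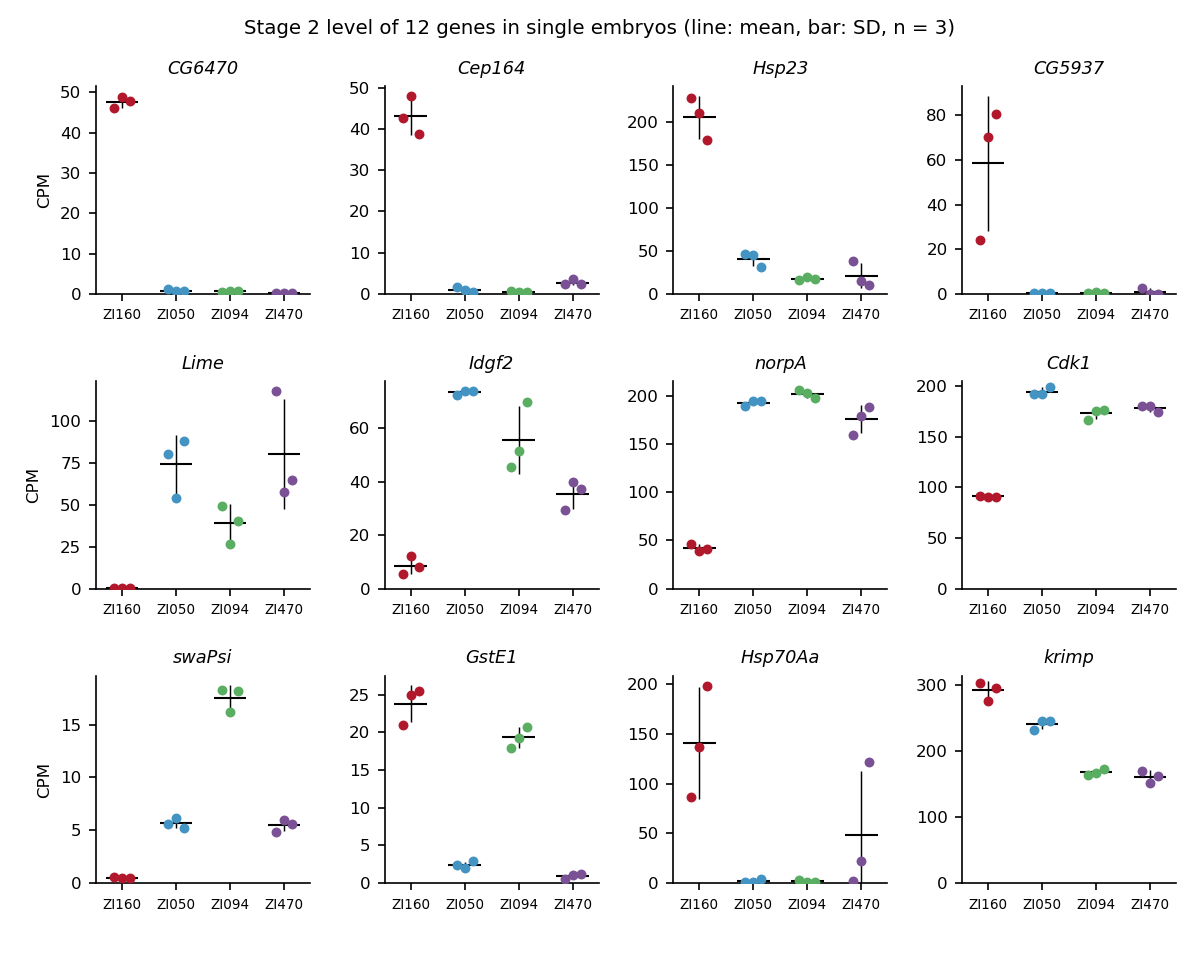
Level of 12 genes in each stage 2 embryo in CPM (y axes start at 0), with ZI160 in red at the left of ZI050, ZI094 and ZI470. Points are embryos, horizontal lines are means and vertical bars are SD over 3 embryos. In CG6470, Cep164, CG5937, Hsp23, GstE1 and krimp all ZI160 embryos lie above all others, in Lime, Idgf2, norpA, Cdk1 and swaPsi below them, and in Hsp70Aa ZI470 reaches into the ZI160 range.

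Among the genes of the early cell cycle, Cdk1 alone was DE of 25 tested (4.0%, against 6.63% of all genes). Cdk1 is the kinase that drives entry into mitosis with the B and A cyclins, and it is encoded at 2L:10384739-10386262. Its RNA stood at 91.4, 90.8 and 90.6 CPM in ZI160, against 192 to 200 CPM in ZI050, 167 to 177 CPM in ZI094 and 174 to 181 CPM in ZI470. The log2 fold change was -1.0 ± 0.04 (adjusted p = 2.8e-08), and the spread within each line was far smaller than the gap between them. The Raleigh embryos had 160 to 186 CPM of Cdk1, so ZI160 was the lowest of 8 lines. The 25 genes include the cyclins CycA and CycB and the phosphatases stg and twe. Of them DESeq2 also called 1, against 854 of all 7242 genes tested. Their median log2 fold change was 0.01, the same as over all genes tested. An unadjusted p under 0.05 was found for 4, against 2056 of all 7242 genes. Without ZI470 replicate 1 a second gene of the list was lower, against 14.2% DE of all genes in that fit.

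The RNAs that pattern the egg were read in short lists, against 6.63% DE of all genes. Of all 7242 genes tested 2056 had an unadjusted p under 0.05, and DESeq2 called 854. In the fit without ZI470 replicate 1, 14.2% of all genes were DE. In the edgeR test 0 of 8 genes of anterior patterning were DE and 0 had an unadjusted p under 0.05, and in the Toll and dorsal pathway 0 of 14 were DE with 3 at an unadjusted p under 0.05. The torso pathway likewise had 0 of 14 DE, with 3 at an unadjusted p under 0.05, and the activators of the zygotic genome, such as zld, 0 of 7 with 0. DESeq2 called 1 gene of these 4 lists, a higher gene of the torso pathway. Without ZI470 replicate 1 the counts were 1 higher and 1 lower gene in the Toll and dorsal pathway and 2 higher genes in the torso pathway. The anterior determinant bcd averaged 248 ± 15.8 CPM in ZI160 and 232 ± 24.3 CPM in the other lines (adjusted p = 0.76), and the posterior determinant osk 1113 ± 209 and 1239 ± 117 CPM (adjusted p = 0.44). Of 17 genes of the posterior and germ plasm list 2 were higher (11.8%), capu, a formin needed to localize osk RNA, and tej, which is also a piRNA gene. capu averaged 97.1 ± 6.84 CPM in ZI160 and 74.8 ± 7.84 CPM in the other lines (log2 fold change 0.38 ± 0.08, adjusted p = 0.0078), a call that was lost without any single embryo except ZI470 replicate 1, with adjusted p of 0.0102 to 0.053. sra, a regulator of calcineurin in egg activation, was the 1 gene of 25 in its list that was DE. It had 108, 93.1 and 105 CPM in ZI160, against 93.6 to 98.7 CPM in ZI050, 52.5 to 55.1 CPM in ZI094 and 82.1 to 97.4 CPM in ZI470, so that its difference was mostly one from ZI094, and its span overlaps Bin1.

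Heat shock proteins are chaperones that hold or refold damaged proteins, and of 18 such genes tested 7 were higher in ZI160 and 0 lower, against 3.84% higher and 2.79% lower of all genes. The small heat shock protein Hsp23 (3L:9381882-9382765) had 228, 210 and 179 CPM in ZI160, against 31.6 to 46.1 CPM in ZI050, 15.7 to 19.5 CPM in ZI094 and 10.7 to 38.2 CPM in ZI470. Its log2 fold change was 3.05 ± 0.26 (adjusted p = 3.00e-05), and it was the only gene of the list that was DE against each line. The Raleigh embryos had 0.197 to 25.3 CPM. The other small heat shock genes did not follow Hsp23: Hsp26 averaged 1127 CPM in ZI160 and 1087 CPM in the other lines and Hsp27 1077 and 1100 CPM, with adjusted p of 0.79 and 0.80.

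The 6 other DE genes were the copies of Hsp70, the stress-induced chaperone. Hsp70Aa had 86.4, 136 and 199 CPM in ZI160, against 0.989 to 3.95 CPM in ZI050, 1.48 to 2.88 CPM in ZI094, and 2.49, 22.1 and 122 CPM in ZI470. Thus ZI160 was above ZI050 and ZI094 in every embryo but overlapped with ZI470, whose own embryos spread widely. The log2 fold change was 6.12 against ZI050, 6.13 against ZI094 and 1.52 against ZI470, and 4.59 ± 0.72 against their mean (adjusted p = 0.0017). Hsp70Ab followed the same order of embryos, with 91.7, 143 and 203 CPM in ZI160 and 0.848 to 129 CPM in the others. The 4 copies at the second site, Hsp70Ba, Hsp70Bb, Hsp70Bbb and Hsp70Bc, were lower in level, with means of 8.85 to 10.1 CPM in ZI160 and 1.08 to 1.35 CPM in the other lines. These copies are nearly identical in sequence, so reads may be split among them in counting and the 6 calls are not independent. Without ZI160 replicate 3 all 6 calls were lost (adjusted p = 0.0108 for Hsp70Aa and 0.0267 for Hsp70Bc), and the 4 copies at the second site also lost theirs without ZI160 replicate 2 (adjusted p = 0.0134 to 0.023). Hsp70Bc lost it too without any ZI050 embryo or ZI094 replicate 3 (0.0108 to 0.0132). Other members were not DE: Hsc70-4 averaged 3863 CPM in ZI160 and 3932 CPM in the other lines, Hsp83 4999 and 4806 CPM, and Hsp68 2.06 and 2.14 CPM.

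The piRNA pathway silences transposons in the germ line through Piwi-clade Argonaute proteins and the small RNAs they carry, and the mother supplies its proteins and RNAs to the egg. Of its 32 genes tested 8 were DE (25.0%, against 6.63% of all genes), 6 higher and 2 lower, while the median log2 fold change of the 32 genes was 0.01. Without ZI470 replicate 1 the counts were 8 higher and 5 lower of 33, against 577 higher and 472 lower of all 7375 genes. krimp, a Tudor domain protein that brings Argonautes together, was the only one that was DE against each line. It had 303, 275 and 296 CPM in ZI160, against 231 to 245 CPM in ZI050, 163 to 173 CPM in ZI094 and 151 to 170 CPM in ZI470 (log2 fold change 0.64 ± 0.04, adjusted p = 6.3e-06).

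nxf2, which acts with Panoramix in silencing at the chromatin, had 130, 125 and 120 CPM in ZI160, against 96.6 to 99.9 CPM in ZI050, 38.7 to 58.9 CPM in ZI094 and 68.2 to 79.4 CPM in ZI470 (log2 fold change 0.85 ± 0.10, adjusted p = 0.00032). The helicase armi had 353, 358 and 344 CPM in ZI160, against 140 to 160 CPM in ZI050, 256 to 281 CPM in ZI094 and 185 to 312 CPM in ZI470. cuff, part of the complex that licenses transcription of piRNA clusters, was the least abundant of the 4, with 9.33, 8.15 and 7.33 CPM in ZI160 and 2.54 to 5.79 CPM in the others. In each of these genes the ZI160 embryos lay above all others, though the nearest line differed, ZI050 for krimp, nxf2 and cuff and ZI094 and ZI470 for armi. The call of cuff was lost without ZI160 replicate 1 (adjusted p = 0.0116), and that of armi without any ZI160 embryo (0.0158 to 0.0245) or without ZI050 replicate 1 (0.0104). In the annotation nxf2 overlaps mbf1 and cuff overlaps ERp60.

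The 4 other DE genes of the pathway were named after their values were seen and differed by less. vret and tej were higher, with log2 fold changes of 0.30 and 0.42, and AGO3 and mael were lower, with -0.40 and -0.30. AGO3, the Argonaute that receives sense piRNAs in the ping-pong cycle, had 139, 151 and 156 CPM in ZI160 and 163 to 220 CPM in the others, without overlap. The plot of the 32 genes shows that the core Argonautes piwi and aub, with log2 fold changes of 0.07 ± 0.08 and -0.42 ± 0.15, and the cluster factors rhi and del, with 0.15 ± 0.15 and 0.03 ± 0.08, were not DE. aub passed the test without ZI470 replicate 1 and was lower (adjusted p = 0.0016), as were tapas and SoYb (6.7e-05 and 0.00011), while shu was higher (0.00072). The call of tej was lost without ZI160 replicate 2, where its log2 fold change was 0.25 (adjusted p = 0.0184), and without 8 other single embryos (0.0105 to 0.0162). That of vret was lost without 10 single embryos (0.0159 to 0.0517), that of AGO3 without any ZI160 embryo (0.0183 to 0.0265) and that of mael without ZI160 replicate 1 or 3 (0.0203 and 0.0361).

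**Figure D3:**
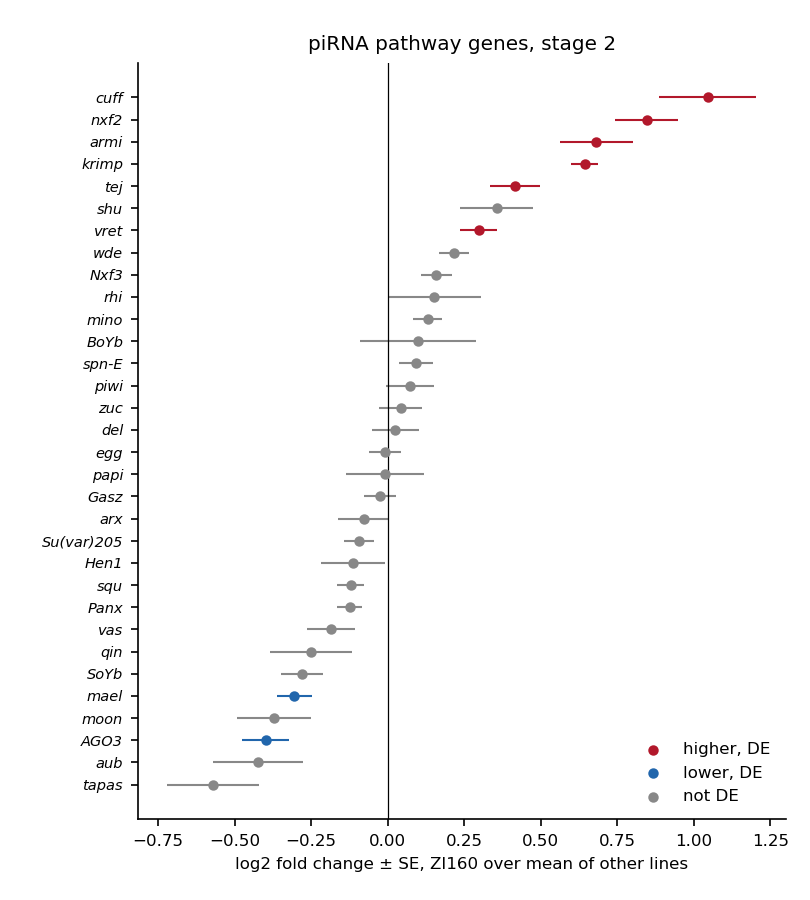
Log2 fold change with SE (x axis) of the 32 genes of the piRNA pathway that were tested (y axis), ZI160 over the mean of the other Zambia lines at stage 2. Cuff, nxf2, armi, krimp, tej and vret were higher (red), mael and AGO3 lower (blue), and 24 genes were not DE (grey).

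The DE genes of detoxification described here were DE against the mean of the other lines without being DE against each of them, as were 367 of all 480 DE genes. Glutathione S-transferases conjugate foreign compounds to glutathione, and of 24 tested 1 was higher and 2 were lower (12.5%, against 6.63% of all genes). GstE1 had 20.9, 24.9 and 25.5 CPM in ZI160, against 18.0 to 20.7 CPM in ZI094, 2.02 to 2.88 CPM in ZI050 and 0.570 to 1.19 CPM in ZI470. Its log2 fold change of 2.75 ± 0.15 against the mean (adjusted p = 1.13e-06) thus combines a value of 0.30 against ZI094 with values of 3.28 and 4.66 against ZI050 and ZI470. GstE11 and GstD3 averaged 12.8 ± 2.35 and 12.5 ± 1.69 CPM in ZI160 and 28.9 ± 6.71 and 26.7 ± 5.93 CPM in the other lines, with all ZI160 embryos below all others, while GstE1 overlaps GstE10 in the annotation. GstD9, at 37.9, 42.2 and 34.4 CPM in ZI160 and 36.3 to 81.5 CPM in the others, missed the threshold (adjusted p = 0.0143) and passed it without ZI470 replicate 1 (0.000114) or ZI470 replicate 2 (0.00379).

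Of 22 cytochromes P450, enzymes that oxidize foreign compounds and hormones, 2 were higher and 1 was lower (13.6%). Without ZI470 replicate 1 the counts were 7 higher and 2 lower of 24, against 577 and 472 of all 7375 genes. Cyp12d1-p had 37.0, 33.4 and 28.5 CPM in ZI160 and 33.2 to 38.7 CPM in ZI050, but 3.28 to 4.31 CPM in ZI094 and 0.606 to 7.32 CPM in ZI470. Cyp12c1 had 1 count in the 3 ZI160 embryos and 10.8 to 13.0 CPM in ZI050, but at most 0.318 CPM in ZI094 and ZI470. For Cyp12d1-p ZI160 and ZI050 thus lay together above ZI094 and ZI470, and for Cyp12c1 ZI050 lay above the 3 other lines, ZI160 among them. The calls were lost without 9 single embryos for Cyp12d1-p, all those of ZI160, ZI050 and ZI094 (adjusted p = 0.02 to 0.0428), and without 9 for Cyp12c1 (0.0101 to 0.0293), all those of ZI160 and ZI050, ZI094 replicate 1 and ZI470 replicates 2 and 3.

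Of 85 cytosolic ribosomal protein genes tested 4 were lower and 0 higher (4.71%, against 6.63% of all genes). An unadjusted p under 0.05 was found for 37 of the 85, against 2056 of all 7242 genes tested. The median log2 fold change of these genes was -0.11, against 0.01 over all genes, and 76 of 85 were below 0, with both TMM and DESeq2's size factors. DESeq2 called 8 lower and 0 higher, against 398 lower and 456 higher of all 7242 genes. Without ZI470 replicate 1 edgeR called 6 lower, against 472 lower of all 7375 genes. RpL28 averaged 535 ± 17.6 CPM in ZI160 and 712 ± 25.7 CPM in the other lines (log2 fold change -0.41 ± 0.07, adjusted p = 0.00299), and RpL8 1027 ± 40.0 and 1192 ± 23.9 CPM (-0.21 ± 0.04, adjusted p = 0.00707). The 2 other calls were RpL37-1 and RpLP0-like, a relative of the stalk protein that the list holds by its symbol. RpL28 overlaps nSMase and several snoRNAs, and RpLP0-like overlaps Jra. The call of RpL28 was lost without any ZI160 embryo (0.0158 to 0.023), and that of RpL8 without ZI160 replicate 2 or 3, ZI050 replicate 1 or 3 or ZI094 replicate 3 (0.0103 to 0.0586). Those of RpL37-1 and RpLP0-like were lost in the same way (0.0179 and 0.0252 without ZI160 replicates 2 and 3 for RpL37-1, and 0.0111 to 0.0316 without 8 single embryos for RpLP0-like). Mitochondrial ribosomal proteins had 1 DE gene of 71, translation factors 0 of 43 with 9 at an unadjusted p under 0.05 and 0 called by DESeq2, and nuclear genes of oxidative phosphorylation 0 of 60 with 17 and 7 called by DESeq2. Over all 7242 genes DESeq2 called 854. Without ZI470 replicate 1 edgeR called 5, 2 and 4 genes of these lists, against 1049 of all 7375 genes (14.2%).

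The 5 most abundant DE genes were all lower in ZI160. The polyubiquitin genes Ubi-p63E and Ubi-p5E led them, with 3113, 3298 and 3194 CPM in ZI160 against 3358 to 4833 CPM in the others for Ubi-p63E (log2 fold change -0.36 ± 0.05, adjusted p = 0.000515), and 3016, 2804 and 2702 CPM against 3005 to 5497 CPM for Ubi-p5E. Ubi-p63E did not overlap between groups, and Ubi-p5E did, with its highest values in ZI094. After RpL8 came awd, a nucleoside diphosphate kinase, and Kap-alpha3, an importin of nuclear transport, at 672 ± 19.0 and 597 ± 17.4 CPM in ZI160 and 806 ± 74.9 and 716 ± 6.54 CPM in the other lines. Without ZI160 replicate 3 the calls of Ubi-p5E, awd and Kap-alpha3 were lost (0.0271, 0.0144 and 0.0110), and without ZI160 replicate 2 that of Ubi-p5E (0.0151). Among 34 proteasome genes Rpn7, a subunit of the lid whose gene overlaps CG34376, was higher beside Rpt3R, at 259 ± 23.6 CPM in ZI160 and 182 ± 27.6 CPM in the other lines, a call lost without ZI160 replicate 1 or 3 (0.0193 and 0.0164).

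Untranslated RNAs held some of the largest differences. Of 131 long noncoding RNAs tested 9 were higher and 5 lower (10.7%), and of 100 pseudogenes 7 were higher and 2 lower (9%), against 6.63% DE of all genes. lncRNA:CR43837 on the X had 0.0346, 0.0748 and 0.0818 CPM in ZI160, 5 counts in all, against 11.4 to 39.8 CPM in 8 of the other embryos and 0.392 CPM in ZI470 replicate 1. Its log2 fold change of -7.92 ± 1.26 had an adjusted p of 0.00183, which was 0.0132 to 0.0147 without any single ZI160 embryo. lncRNA:CR34335, whose span overlaps DIP-alpha, had 7.12, 16.1 and 15.1 CPM in ZI160, against 438 to 575 CPM in ZI050, 26.7 to 89.7 CPM in ZI094 and 94.2 to 379 CPM in ZI470. ZI160 was the lowest line, and the others also differed widely among themselves. This call too was lost without any ZI160 embryo (0.0106 to 0.0122). Without ZI470 replicate 1, 13 of 144 noncoding RNAs were higher and 14 lower, and of 103 pseudogenes 11 were higher and 9 lower. In that fit 577 of all 7375 genes were higher and 472 lower.

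swaPsi is a pseudogene copy of swa, whose product anchors bcd RNA at the anterior of the oocyte, and both lie side by side on the X (6361496-6363310 and 6363418-6365708). swaPsi had 0.553, 0.524 and 0.450 CPM in ZI160, against 5.22 to 6.16 CPM in ZI050, 16.2 to 18.2 CPM in ZI094 and 4.88 to 6.01 CPM in ZI470. Its log2 fold change was -3.99 ± 0.15 (adjusted p = 4.03e-08), and the Raleigh embryos, at 1.5 to 3.39 CPM, lay between ZI160 and the other Zambia lines. The parent gene swa was not DE, at 528 ± 25.5 CPM in ZI160 and 496 ± 14 CPM in the other lines (adjusted p = 0.29). As swaPsi is a copy of swa, reads of swa may be counted there.

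Of 15 genes tested on the Y chromosome 3 were DE, all pseudogenes and all higher, against 6.63% of all genes. The paper describes the maternal RNA of embryos this early as coming from XX genomes only. Where the reads counted at these Y genes came from was not tested, so the counts are not a measure of expression from a Y chromosome. CR40601 had 28, 20 and 26 counts in the ZI160 embryos and 31 to 34 in ZI050, but 0 in all 6 embryos of ZI094 and ZI470, and CR46162 had 28 to 36 counts in ZI160, 34 to 50 in ZI050 and at most 1 in ZI094 and ZI470. Both thus separated ZI160 and ZI050 from ZI094 and ZI470, and both were at most 0.0359 CPM in every Raleigh embryo. CR46186, the third, had 0.941 to 1.27 CPM in ZI160, 0.696 to 0.918 CPM in ZI050 and 0.0342 to 0.565 CPM in ZI094, and 0 in ZI470. Its call was lost without 10 single embryos (0.0124 to 0.0420), and CR40601 overlaps CR46182.

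The DE genes were spread over the genome. They made up 7.14% of 1316 genes tested on the X, 6.27% of 1308 on 2L, 7.73% of 1411 on 2R, 6.60% of 1379 on 3L and 5.72% of 1662 on 3R, with 1 of 67 on chromosome 4. Most stood alone: of the DE genes in the order of tested genes, 421 had no neighbour that changed in the same direction, 40 formed pairs, and 3 runs were longer. The first run was Hsp70Ba, Hsp70Bbb, Hsp70Bb and Hsp70Bc on 3R. The second, on 2L, held CG18789, Qtzl, Ada1-1 and CG18787 within 5352 bases, all lower, with Qtzl at 20.7 ± 1.32 CPM in ZI160 and 29.0 ± 3.74 CPM in the other lines. The stretch holds duplicated genes, among them the copies Ada1-1 and Ada1-2, so that their counts may share reads. The calls of CG18789 and CG18787 were lost without ZI160 replicate 2 or 3 (0.0124 to 0.0160).

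The third run lay on the X in the gene Ten-a, a teneurin receptor of the nervous system, whose span of 291517 bases also contains lncRNA:CR43960 and Muc11A. Ten-a had 36.0, 74.9 and 67.0 CPM in ZI160, against 20 to 25.3 CPM in ZI050, 12.2 to 17.3 CPM in ZI094 and 3.60 to 10.4 CPM in ZI470 (log2 fold change 2.09 ± 0.26, adjusted p = 0.000378). ZI160 was above all others, and the 3 other lines also differed from each other. lncRNA:CR43960 and Muc11A had log2 fold changes of 2.18 ± 0.39 and 2.17 ± 0.36, close to that of Ten-a, and since the genes overlap their reads may not be separable. Muc11A lost its call without ZI160 replicate 2 or 3 (0.0239 and 0.0178), and lncRNA:CR43960 without 7 single embryos (0.0103 to 0.0329).

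Several more genes of known role were DE against each of the 3 lines. They were named after their values were seen. c(3)G, the central component of the synaptonemal complex of meiosis, had 62.7, 102 and 90.3 CPM in ZI160, against 12.6 to 26.0 CPM in the others (log2 fold change 2.21 ± 0.15, adjusted p = 6.3e-06), and mei-P22, needed to break DNA for meiotic recombination, had 5.32, 6.02 and 4.09 CPM against 1.11 to 2.50 CPM. The ZI160 mean of c(3)G lay within the range of the Raleigh embryos, 17.8 to 102 CPM, and that of mei-P22, 5.15 CPM, just above theirs, 1.80 to 4.96 CPM. comt, the fly's NSF ATPase of vesicle fusion, averaged 38.3 ± 7.21 CPM in ZI160 and 7.11 ± 3.13 CPM in the other lines, Fatp1, a fatty acid transporter, 42.7 ± 3.75 and 11.6 ± 4.15 CPM, and the golgin GCC185 282 ± 14.7 and 132 ± 28.8 CPM. The kinase gene Mekk1 had 483, 525 and 527 CPM in ZI160 and 319 to 396 CPM in the others.

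Trap1, the mitochondrial Hsp90, had 57.0, 52.7 and 51.0 CPM in ZI160, against 75.3 to 118 CPM in the others, and CCT5, a subunit of the cytosolic chaperonin, 314, 325 and 344 CPM against 402 to 589 CPM. The gap junction gene Inx2, which lies beside lncRNA:CR43837, had 71.5, 83.1 and 81.4 CPM in ZI160 and 146 to 179 CPM in the others. Gen, a nuclease that resolves recombination intermediates, averaged 11.4 ± 0.662 CPM in ZI160 and 34.5 ± 4.41 CPM in the other lines (log2 fold change -1.60 ± 0.14, adjusted p = 2.95e-05). In each of these 4 genes the ZI160 embryos lay below all others.

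Did the differences of ZI160 recur in other embryos of the same lines? At stage 5, where 3 other embryos of ZI160 were set against 9 of the other lines, all of them XY by genotype, 2145 of 9371 genes were DE (22.9%), 1167 higher and 978 lower, and 1379 without ZI160 replicate 2. Of the 460 genes that were DE at stage 2 and tested at both stages, 189 (41.1%) were DE in the same direction at stage 5, 34 were DE in the opposite direction and 237 were not DE. Of the 6620 genes not DE at stage 2, 13.3% were DE at stage 5 in the direction of their stage 2 value. Of the 109 genes DE against each line, 59 (54.1%) were DE in the same direction, 8 in the opposite direction and 42 were not DE. Across the 460 genes Spearman's correlation of the log2 fold changes of the stages was 0.64, against 0.26 over all 7080 genes, a description across genes, which are not independent replicates. In whole stage 5 embryos fewer cells of a type and less RNA per cell cannot be told apart.

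Cdk1 was also lower at stage 5, with 209, 207 and 198 CPM in ZI160, against 325 to 361 CPM in the others (log2 fold change -0.74 ± 0.05, adjusted p = 1.15e-07). Sodh2 had 0.155, 0.146 and 0.470 CPM in ZI160 and 5.05 to 42.8 CPM in the others, and Idgf2 13.7, 19.4 and 12.8 CPM against 92.7 to 167 CPM. CG6470 and CG7720 also kept their side, with 3.51 to 6.88 and 5.52 to 10.9 CPM in ZI160 and at most 0.240 and 3.31 CPM in the others. Hsp23 had 301, 202 and 377 CPM in ZI160 and 19.5 to 113 CPM in the others. For these genes the ZI160 embryos of both stages lay outside the range of the others.

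**Figure D4:**
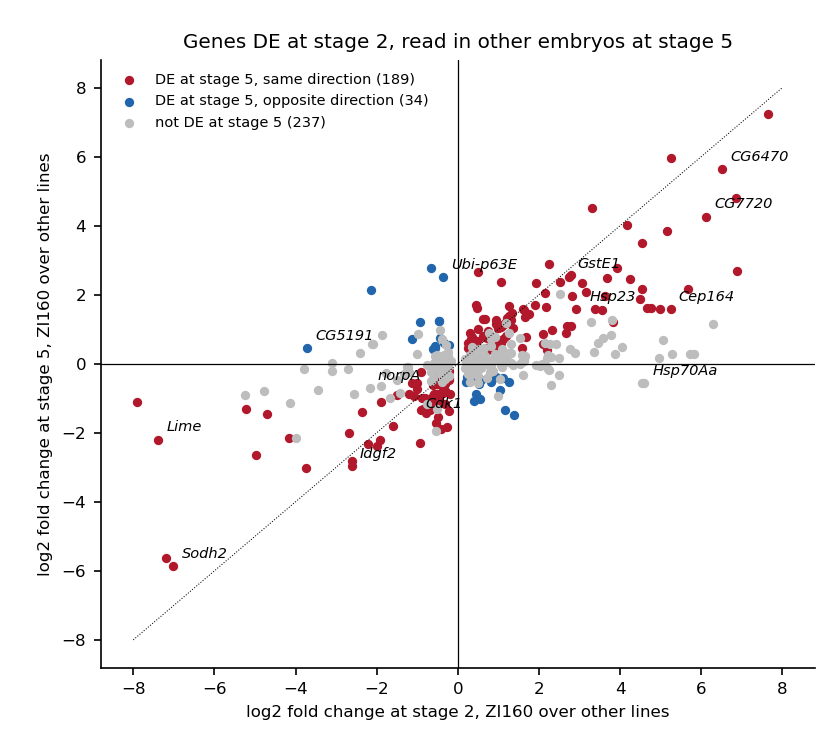
Log2 fold change of ZI160 over the other Zambia lines at stage 2 (x axis) and at stage 5 (y axis) for the 460 genes that were DE at stage 2 and tested at both stages, with 1 point per gene. Red points (189) were DE at stage 5 in the same direction, blue points (34) in the opposite direction and grey points (237) were not DE; the dotted line marks equal values.

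Other genes differed between the stages. The interaction of stage and line was tested over the 24 Zambia embryos, and 997 of 9563 genes passed (10.4%), among them 171 of the 460. In 152 of the 171 the stage 2 minus stage 5 value had the sign of the stage 2 difference. The 460 genes were chosen by their stage 2 difference in the same embryos, which favours that sign. Among the 6620 genes not DE at stage 2, 799 passed and 548 of these had that sign. The count of 152 also takes in genes with a larger, opposite difference at stage 5, such as Ubi-p63E. Lime stood at 26.4, 20.1 and 19.9 CPM in ZI160 at stage 5, against 56.7 to 138 CPM in the others, and its log2 fold change was -2.20 ± 0.16 at stage 5 and -7.39 ± 0.45 at stage 2 (interaction adjusted p = 4.87e-08). norpA had 6.20 to 10.3 CPM in ZI160 at stage 5 and 7.19 to 19.7 CPM in the others, and the groups overlapped (adjusted p = 0.0195). CG5191 was higher in ZI160 at stage 5, with a log2 fold change of 0.44 ± 0.07 and of -3.71 ± 0.29 at stage 2. Hsp70Aa was not DE at stage 5 (-0.56 ± 0.39, adjusted p = 0.28), where ZI470 had the highest levels, 312 to 1283 CPM, and ZI160 35.2 to 84.4 CPM. Ubi-p63E had 474, 373 and 820 CPM in ZI160 at stage 5 and 49.2 to 179 CPM in the others, a log2 fold change of 2.50 ± 0.19 at stage 5 and -0.36 ± 0.05 at stage 2. Among the piRNA genes armi, nxf2 and krimp were DE and higher at both stages, with stage 5 log2 fold changes against the mean of the other lines of 1.30, 0.58 and 0.76. For krimp this did not hold against each line, since it had 23.7, 33.3 and 43.7 CPM in ZI160 at stage 5, below the 45.9 to 56.9 CPM of ZI050 and above the 6.93 to 22.9 CPM of ZI094 and ZI470. cuff was lower at stage 5, with -0.77 ± 0.17.

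The 4 Raleigh lines were not part of the test and show where the ZI160 level lies among all 8 lines. For this the 24 stage 2 embryos of both populations were scaled together with TMM. The mean of ZI160 was outside the means of all 7 other lines for 170 of the 278 higher genes (61.2%) and for 152 of the 202 lower genes (75.2%), against 1691 of 7242 genes tested (23.3%). Since the test already set ZI160 apart from 3 of these 7 lines, the shares are a description. CG6470, Hsp23, Cdk1, norpA and Lime were among those outside, and Idgf2, CG12708, CG9503, c(3)G and comt were not.

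With the same contrast ZI050 had 538 DE genes against the remaining lines (7.43%), ZI094 584 (8.06%) and ZI470 305 (4.21%), and without ZI470 replicate 1 they had 1329, 1152 and 1330, against 1049 for ZI160. By the criterion of DE against each other line, ZI160 had 113 genes, ZI050 104, ZI094 119 and ZI470 33, and without ZI470 replicate 1 the counts were 240, 235, 231 and 521. These comparisons share embryos, and the difference between the counts was not tested. Taken line by line, ZI160 differed from ZI050 in 538 genes (7.43%), from ZI094 in 521 (7.19%) and from ZI470 in 348 (4.81%).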

How the data were processed

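Poly(A) RNA of single embryos was sequenced as stranded libraries. The authors trimmed reads with cutadapt, mapped those of every line to 1 reference genome with HISAT2 2.1.0 and deposited counts per gene from featureCounts; the strand setting of counting is not given in the sources used here. The table held 17481 genes and 48 columns, and 0 columns were left unused. The 17343 genes matched in Ensembl's annotation of BDGP6 took names and positions from it, and the 138 others held 1.13% of counts.

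Genes were kept by filterByExpr (minimum count 10) and fitted with TMM and 1 coefficient per line in edgeR 4.0.16 (R 4.3.3), with the quasi-likelihood F-test and Benjamini-Hochberg adjusted p under 0.01 over all genes tested; DESeq2 1.42.0 was an alternative. SE is the absolute log2 fold change over the square root of F. The test was tested on simulated data.

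Members and gene lists were chosen with earlier results of these data known. Named genes were the 12 higher and 12 lower genes with the largest fold change among those DE against each line, not overlapping and at 5 CPM or more on the higher side; up to 4 DE genes per list; the 5 most abundant DE genes; genes in runs of 3 or more; and genes the study names. Embryos of a line differed beyond sampling noise (lowest chi-squared per degree of freedom 13.1), so none was counted as a duplicate.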

Additional observations from a re-analysis of the deposited data

Results flagged for a closer look

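Of 79 named genes, 31 had a log2 fold change of ZI160 over the other Zambia lines that differed between stage 2 and stage 5 by the interaction test (edgeR, adjusted p under 0.01). In 25 of them the difference was larger at stage 2. Most named genes were chosen by their stage 2 difference in the same embryos, which favours a larger difference at that stage. Each value below is the stage 2 log2 fold change minus that of stage 5, from the fit over the 24 Zambia embryos of both stages.

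Among genes that were higher in ZI160 at stage 2 the value was 5.50 for CG12708, 5.11 for Hsp70Aa, 5.07 for Hsp70Ab, 5.07 for CG34355, 4.96 for CG17167, 4.75 for CG2930, 4.25 for CR40601, 4.14 for CG5937, 3.62 for Cep164, 3.54 for Hsp70Ba, 2.79 for Hsp70Bb and 2.56 for CG11382. It was 1.78 for cuff, 1.47 for Ten-a and 1.08 for Rpn7. Hsp70 copies share reads, so these values are not separate results.

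Among genes that were lower at stage 2 it was -6.83 for lncRNA:CR43837, -5.23 for Lime, -4.18 for CG5191, -3.68 for CR43972, -2.90 for Ubi-p63E, -2.78 for CG34347, -2.75 for CG9503, -2.06 for FBgn0058178, -1.90 for GstE11, -1.51 for norpA, -1.45 for Ubi-p5E, -0.30 for Cdk1 and -0.30 for Ugt316A1. For Qtzl, LysRS and Ada1-1 it was positive, 1.01, 0.62 and 0.58.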

How the results depend on the processing

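ZI160 had 480 DE genes against the mean of the other Zambia lines. There were 995 at an adjusted p under 0.05, 854 with DESeq2's Wald test, 744 with all 24 stage 2 embryos in 1 fit, 114 against a fold change of 1.5, 149 without line terms and 0 with counts summed per line. Leaving out line ZI050, ZI094 or ZI470 gave 284, 283 or 967. Against each line there were 113, and 240 at 0.05, 210 with DESeq2, 177 with 24 embryos and 30 against a fold change of 1.5. At 0.05 ZI050, ZI094 and ZI470 had 1343, 1199 and 1034 genes, stage 5 had 3485 and the interaction 1653. Leaving out 1 embryo gave 248 to 1049 for ZI160, 60 to 240 against each line, 166 to 1329 for ZI050, 186 to 1152 for ZI094, 134 to 1330 for ZI470, 1379 to 2177 at stage 5 and 692 to 1209 for the interaction. Fewer samples entered these fits. For ZI160 the count rose above 480 only without ZI470 replicate 1, and the next highest was 459. Causes of the rise and of the falls were not tested. Of 92 genes followed through the alternatives, not all of them described above, DESeq2 and its size factors lost 0 calls and the fit against a fold change of 1.5 lost 45. No call changed direction in the alternatives run.

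Embryos of different lines with the same replicate number did not deviate together: 5 of 18 pairs had a correlation above 0.1, with a range of -0.20 to 0.14. The number as a replicate block gave 412 genes for ZI160, 78 against each line, 467, 482 and 213 for ZI050, ZI094 and ZI470, 1968 at stage 5 and 936 for the interaction.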
